A study of Mus musculus with 12 samples.

Results

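Replication-dependent histone genes encode the linker histone H1 and the core histones H2A, H2B, H3 and H4 that package newly copied DNA. They were examined here in mouse embryonic stem cells (ESCs) that were wild-type (WT) or lacked Dgcr8 (Dgcr8 KO). The members were protein-coding genes whose symbol begins with Hist1h, Hist2h, Hist3h or Hist4h. The count table held 67 of them among 51467 gene identifiers, and 59 passed the filter of at least 3 CPM (counts scaled to a common library size) in at least 3 libraries, which left 14033 genes in all. The 59 were 6 H1, 14 H2A, 16 H2B, 11 H3 and 12 H4 genes. Because of this filter, a member could enter through the genotype or the library type in which it was higher.

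WT cells were V6.5 ESCs, and the parental strain of the KO line is not given in the sources used here. Both genotypes were grown with serum, LIF and 2i (the inhibitors PD0325901 and CHIR99021) and given 500 uM 4-thiouridine (4sU), a uridine analogue, for 30 min. RNA that had taken up 4sU was biotinylated and captured (4sU RNA, the nascent measure), and the other portion was depleted of ribosomal RNA (total RNA, the steady-state measure). There were 3 numbered replicates per genotype (called cultures here), each with both library types made from 1 divided RNA sample, hence 12 libraries. The KO was 1 line made earlier, and the labels do not say that the replicates were grown separately, so p-values here measure only the spread between these samples, which may be technical. Dgcr8 encodes a partner of the Drosha nuclease that processes primary microRNA transcripts.

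Unlike other mRNAs, replication-dependent histone mRNAs end in a short stem-loop and not in a poly(A) tail. The stem-loop binding protein (SLBP) binds this structure and acts in processing, translation and decay of the message. The genes lie in clusters, are transcribed mainly in S phase under NPAT and cyclin E-CDK2, and their mRNAs are quickly destroyed when DNA synthesis ends. Ribosomal depletion keeps RNA without a poly(A) tail, and no poly(A) selection is described for these libraries. In these bulk samples, fewer cells in S phase and less histone RNA per cell in S phase cannot be told apart.

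Total counts per library ranged from 4593914 to 9295245. Dgcr8 itself fell from 101.0 ± 9.26 to 33.1 ± 1.08 CPM in total RNA (SD, n = 3; log2 change -1.60, limma adjusted p = 4.6e-17). All 10 ESC markers examined passed the filter, and their summed level in total RNA ranged from 5607 to 5774 CPM in WT and from 5585 to 5713 CPM in KO. Within that sum, 4 markers were higher and 5 lower at a limma adjusted p under 0.05 (26.1% and 35.4% of all genes). In 4sU RNA the sum ranged from 5693 to 5775 CPM in WT and from 6541 to 7218 CPM in KO, without overlap. There, 8 of the 10 markers were higher and 1 lower (28.3% and 28% of all genes). Fibroblast markers summed to at most 14.2 CPM and primitive endoderm markers to at most 22.0 CPM in any library, with Dcn and S100a4 at 0 counts throughout. Of the 2 primitive endoderm markers that passed the filter, Pdgfra rose in total RNA from 0.943 ± 0.423 to 4.52 ± 1.33 CPM. Its log2 change was 2.2 (limma adjusted p = 1.5e-05), on 3 to 51 counts per library. The other, Gata4, did not pass in total RNA, and the fibroblast marker Pdgfrb fell (log2 change -0.77). The WT 4sU library of culture 3 stood apart for the histone genes. It held the highest of the 3 WT 4sU values for 55 of the 59 members, against 35.9% of all genes tested, and the main counts that rest on 4sU RNA are therefore also given without it.

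The 3′ stem-loop was the sequence feature most of the annotated messages shared. A script searched GENCODE M21 3′ UTRs for a 6-base stem with a 4-base loop of the histone type and found it in 38 of the 42 passing members with at least 60 annotated 3′ UTR bases. A further 17 members have shorter annotated ends, 13 of them with no 3′ UTR at all. Among other tested protein-coding genes with a 3′ UTR, 137 of 11767 (1.16%) held a match. The 10 below show each stem found, with the members the results turn on. Capitals mark the 16 bases of the stem-loop, the letters are DNA in the sense direction, and the coordinates (mm10) are those of the capitals.
Hist1h2bf, chr13:23573765-23573780, minus strand: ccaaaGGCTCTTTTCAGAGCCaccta
Hist1h2be, chr13:23585531-23585546, minus strand: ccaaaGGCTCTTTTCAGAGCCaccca
Hist1h3a, chr13:23761890-23761905, minus strand: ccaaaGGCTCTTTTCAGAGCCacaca
Hist1h1t, chr13:23696525-23696540, plus strand: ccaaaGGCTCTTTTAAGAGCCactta
Hist1h2bb, chr13:23747203-23747218, plus strand: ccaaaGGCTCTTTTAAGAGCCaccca
Hist2h2ac, chr3:96220418-96220433, minus strand: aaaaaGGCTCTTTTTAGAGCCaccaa
Hist1h4d, chr13:23581950-23581965, plus strand: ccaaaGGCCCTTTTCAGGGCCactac
Hist1h4h, chr13:23531458-23531473, plus strand: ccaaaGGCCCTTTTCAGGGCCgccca
Hist2h4, chr3:96262939-96262954, minus strand: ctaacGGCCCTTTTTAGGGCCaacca
Hist1h4b, chr13:23757366-23757381, plus strand: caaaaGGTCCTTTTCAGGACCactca

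The commonest form, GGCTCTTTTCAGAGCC, was present in 21 members. Its loop is TTTC, and the loop read TTTA instead in 6 members and TTTT in 1 (Hist2h2ac). All forms with another stem belonged to H4 genes: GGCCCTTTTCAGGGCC in 6, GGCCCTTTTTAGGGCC in 2 and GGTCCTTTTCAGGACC in 2. The messages were also short and mostly unspliced, with a median deposited length of 476 bases and a single listed exon in 56 of 59. The hexamer GCACTT, the seed match of a microRNA family abundant in ESCs, was in the annotated 3′ UTR of 4 of the 59 members. It was in 39% of other tested coding genes with an annotated 3′ UTR. These figures are not like for like, since 17 members have under 60 annotated 3′ UTR bases, 13 of them none. Lengths were not matched, so missing or short annotation could lower the count of members.

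Promoters differed by class in the RefSeq windows (GRCm38.p6, from 250 bases before to 50 after the start), which were matched for 54 of 59 members. The octamer ATTTGCAT, searched on both strands, is the binding sequence of Oct factors and was present in 7 of 14 H2A and 7 of 14 H2B promoters. It was found in 0 of 6 H1, 0 of 9 H3 and 0 of 11 H4 promoters, against 1.74% of all 32851 promoters. CCAAT, on either strand, was in all H1, H2A, H2B and H3 promoters but in 3 of 11 H4 promoters (37.4% of all promoters). TATAA was in 5 of 6 H1, 13 of 14 H2A, 11 of 14 H2B, 5 of 9 H3 and 10 of 11 H4 promoters (24.9% of all). Several H2A and H2B genes stand head to head and share 1 octamer between them, read on opposite strands. The pairs Hist1h2ah with Hist1h2bk and Hist1h2aa with Hist1h2ba are shown for this, with Hist2h2bb for its large change; each sequence reads along its own gene, and capitals mark the octamer.
Hist1h2bk, chr13:22035791-22035798, plus strand: ttcactttATTTGCATacgaagtt
Hist1h2ah, chr13:22035791-22035798, minus strand: aacttcgtATGCAAATaaagtgaa
Hist1h2ba, chr13:23934313-23934320, minus strand: ttccccttATTTGCATgcacccag
Hist1h2aa, chr13:23934313-23934320, plus strand: ctgggtgcATGCAAATaaggggaa
Hist2h2bb, chr3:96269652-96269659, plus strand: gaaacctcATTTGCATacaagctc

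Histone RNA made up less of the steady-state pool in Dgcr8 KO. The 59 members took 1.15% to 1.2% of all counts in WT total libraries and 0.755% to 0.78% in KO total libraries, so the groups did not overlap. In 4sU RNA the shares were 2.96% to 3.99% in WT and 2.59% to 2.86% in KO, and the WT range reached 3.99% through culture 3. Summed over the members, total RNA was 12604 ± 316 CPM in WT and 7948 ± 112 CPM in KO, or 63.1% of WT (SD, n = 3; CPM is here scaled by library size and TMM factor). The 4sU sum was 32082 ± 5205 CPM in WT and 25938 ± 1225 CPM in KO, or 80.8% of WT. Against cultures 1 and 2 alone, whose mean was 29098 CPM, it was 89.1%.

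The fall in summed total RNA had a similar size in each class. KO total RNA was 60.5% of WT for H1, 61.0% for H2A, 62.4% for H2B, 66.0% for H3 and 66.8% for H4. In every class, all 3 KO total libraries lay below all 3 WT total libraries. In 4sU RNA the classes stood at 73.4% (H1), 79.7% (H2A), 91.3% (H2B), 85.5% (H3) and 79.3% (H4) of WT. Without WT culture 3 they stood at 80.2% (H1), 87.7% (H2A), 100.0% (H2B), 95% (H3) and 88.9% (H4). For H2B and H3 the 4sU libraries of the genotypes overlapped.

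**Figure D1:**
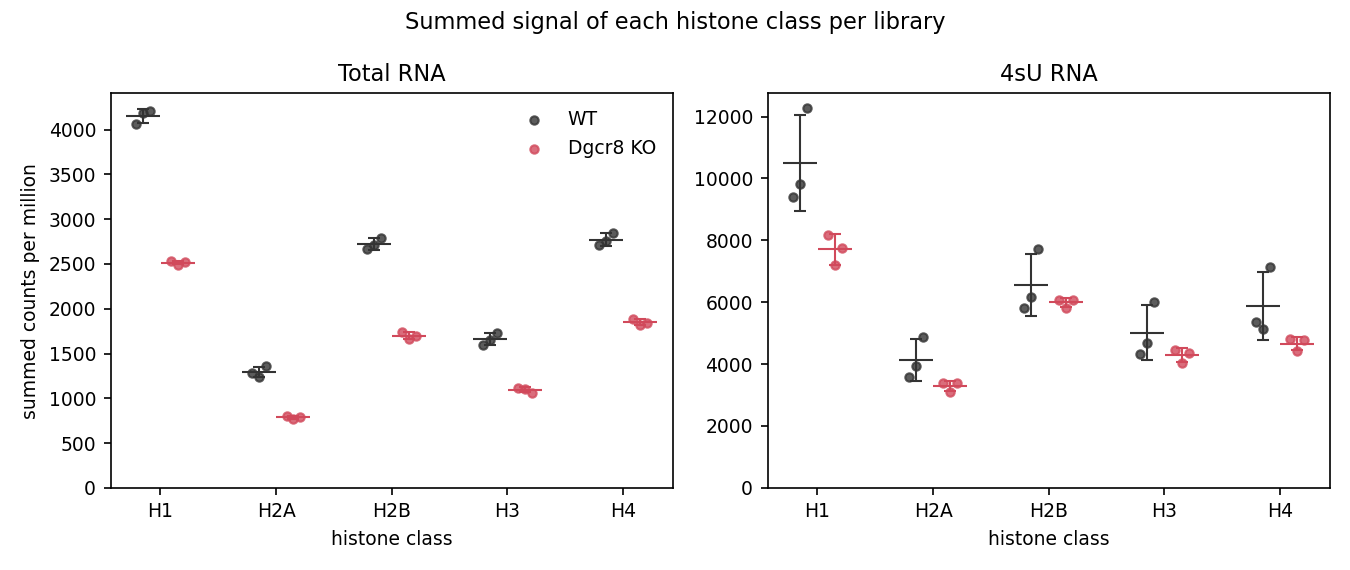
Summed CPM of each histone class in total RNA (left) and 4sU RNA (right), with the class on the x axis. Points are libraries, horizontal bars are means and whiskers are SD (n = 3). KO total libraries lie below WT in each class, whereas WT 4sU RNA has 1 high library.

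Most members fell in total RNA. Of the 59, 50 were lower and 1 was higher at a Benjamini-Hochberg adjusted p under 0.05 (limma, adjusted over all 14033 genes), where 35.4% of all genes were lower and 26.1% higher. With the added requirement of an absolute log2 change over 1, 19 were lower and 0 higher (8.05% and 9.56% of all genes). The median log2 change of the members was -0.70, against -0.09 for all genes. By class, 5 of 6 H1, 11 of 14 H2A, 14 of 16 H2B, 10 of 11 H3 and 10 of 12 H4 genes fell. All 3 KO cultures lay below all 3 WT cultures for 52 members, against 39.6% of all genes. The fit without the WT 4sU library of culture 3 gave 52 lower and 1 higher (35.9% and 26.3% of all genes).

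The largest fall was that of Hist1h1t (ENSMUSG00000036211.3), which encodes a testis-specific linker histone and was the lowest H1 gene here. It passed the filter through WT, since no KO total library reached 3 CPM, so that a difference was favoured by its selection. Its total RNA was 5.75, 4.00 and 6.13 CPM in WT and 0.337, 0.904 and 0.287 CPM in KO. The groups did not overlap, and the fitted log2 change was -3.35 (SE 0.429, limma adjusted p = 5.1e-08). This rested on 2 to 7 counts per KO library, so that summed KO counts were 9.64% of WT with an exact 95% interval of 4.85% to 17.5% for counting error alone. Hist1h2aa (ENSMUSG00000060081.1), a testis H2A gene, was also low, at 9.47, 6.91 and 7.51 CPM in WT and 1.12, 1.68 and 2.44 CPM in KO (log2 change -2.22, limma adjusted p = 2.94e-07).

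Among the better expressed members, Hist1h2bf (ENSMUSG00000069268.4, H2B) fell from 58.1, 52.8 and 57.6 CPM in WT to 13, 9.04 and 12.2 CPM in KO, 4.92-fold lower (log2 change -2.30, SE 0.131, limma adjusted p = 6.76e-16). Hist1h1b (ENSMUSG00000058773.2), a linker histone gene whose sequence is fully unique at the read length, measured 669, 650.1 and 725 CPM in WT and 190.1, 197 and 205 CPM in KO. Every KO culture lay far below every WT culture, and the fall was 3.46-fold (log2 change -1.79, SE 0.0769, limma adjusted p = 5.65e-19). Hist2h2bb (ENSMUSG00000105827.1), an H2B gene of the chromosome 3 cluster, measured 390.3, 415 and 387 CPM in WT and 144, 159.5 and 147 CPM in KO (log2 change -1.41, limma adjusted p = 6.75e-18). Of its 381 bases, 226 overlap Gm42743 on the same strand.

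Only Hist1h2be (ENSMUSG00000047246.6, H2B) rose in total RNA. It measured 94.0, 107 and 96.4 CPM in WT and 141, 128 and 147 CPM in KO, without overlap (log2 change 0.48, SE 0.0893, limma adjusted p = 2.54e-05). Its deposited model spans chr13:23583742-23621124 with 2438 exonic bases, far more than the core message, and 134 of them overlap Gm11398 on the same strand. A count per gene does not show where in this model the reads fell. The 8 members that did not pass in total RNA were Hist1h1c, Hist1h2af, Hist2h2ab, Hist3h2a, Hist2h2be, Hist2h3c2, Hist1h4h and Hist1h4n. Their log2 changes ranged from -0.74 (Hist3h2a) to 0.38 (Hist1h4n).

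The most abundant messages of each class, by CPM per kb in WT total RNA, were Hist1h1a (2268 CPM per kb), Hist1h2ak (589.7), Hist1h2bb (1263), Hist1h3g (458) and Hist1h4d (1618). Hist1h1a (ENSMUSG00000049539.2) measured 1433, 1454 and 1481 CPM in WT total RNA and 628, 588 and 643 CPM in KO (log2 change -1.24, limma adjusted p = 1.74e-16). Hist1h2ak (ENSMUSG00000063021.3) measured 236, 214 and 246 CPM in WT and 67.9, 73.7 and 77.0 CPM in KO (log2 change -1.67, limma adjusted p = 8.3e-17).

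Hist1h2bb (ENSMUSG00000075031.3) measured 551, 587 and 576 CPM in WT and 406, 387 and 374 CPM in KO (log2 change -0.55, limma adjusted p = 4.22e-09). Hist1h3g (ENSMUSG00000099517.1) measured 189, 204 and 194 CPM in WT and 139.9, 139 and 132 CPM in KO (log2 change -0.51, limma adjusted p = 5.93e-07). Hist1h4d (ENSMUSG00000061482.6) measured 624, 633 and 651 CPM in WT and 466, 450.5 and 447 CPM in KO (log2 change -0.48, limma adjusted p = 2.83e-07). In these 3 genes every KO value was below every WT value. The order of levels is uncertain, since uniquely mapped reads cover a gene unevenly. Levels were also taken as CPM per 1000 windows of 50 bases found at a single genomic position among GENCODE transcripts. By these, Hist1h2ai would lead the H2A genes (4607), Hist1h2bk the H2B genes (2927) and Hist1h3h the H3 genes (3376).

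The linker histone genes have largely distinct sequences (at least 76.5% unique windows in each), so that their shares of the H1 signal could be compared. Hist1h1a and Hist1h1b lost share in KO, while Hist1h1c and Hist1h1d gained it. As a share of H1 CPM per kb in total RNA, Hist1h1a went from 43.7% ± 0.124 in WT to 33.7% ± 1.07 in KO and Hist1h1b from 17.7% ± 0.807 to 9.28% ± 0.345 (SD, n = 3). Hist1h1d went from 22.2% ± 0.523 to 32.4% ± 0.438 and Hist1h1c from 12.3% ± 0.512 to 20.7% ± 0.656. No WT and KO libraries overlapped for these 4. Hist1h1e kept a like share, 3.96% ± 0.158 in WT and 3.86% ± 0.0653 in KO.

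The same shifts were seen in 4sU RNA, where Hist1h1d took 23.1% ± 0.398 in WT and 33.3% ± 1.31 in KO and Hist1h1b took 23.9% ± 0.719 and 15.7% ± 0.287. As levels, Hist1h1d fell slightly in total RNA (log2 change -0.32, limma adjusted p = 4.11e-05) and Hist1h1c did not pass (log2 change -0.11, limma adjusted p = 0.0966). The deposited model of Hist1h1c is 1560 bases long, the longest of the 6, which lowers its value per kb. These shares were compared after the values of the H1 genes had been seen, and no test was made on them.

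**Figure D2:**
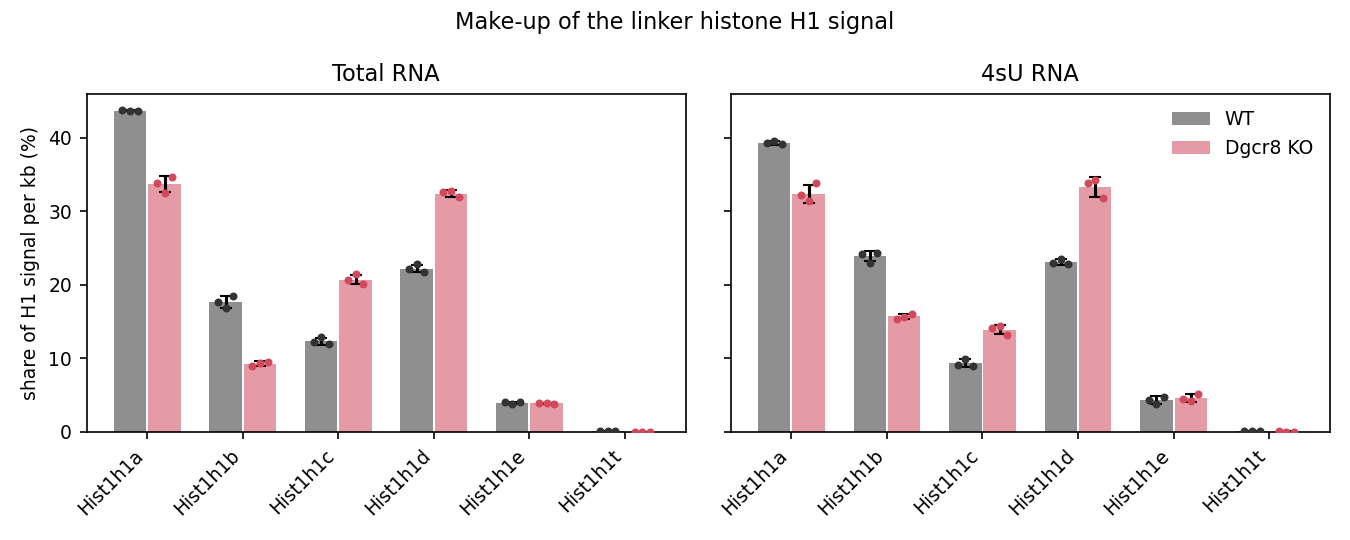
Share of each H1 gene in the summed H1 CPM per kb, in percent, for total RNA (left) and 4sU RNA (right). Bars are means with SD (n = 3) and points are libraries; Hist1h1a and Hist1h1b are lower and Hist1h1c and Hist1h1d higher in KO in both panels.

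Nascent RNA fell less uniformly. In 4sU RNA 35 of 59 members were lower and 4 higher at adjusted p under 0.05 (28% and 28.3% of all genes), and 8 were lower and 0 higher by more than 1 on the log2 scale (5.27% and 9.5% of all genes). The median log2 change was -0.28, against -0.02 for all genes. All KO cultures lay below all WT cultures for 25 members and above them for 2 (29.4% and 29.6% of all genes). Without the WT 4sU library of culture 3, 29 members were lower and 13 higher (26.2% and 27.0% of all genes), with a median of -0.17, so the balance of directions depended on that library.

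The largest nascent falls were those of Hist1h1t, Hist1h2bf, Hist1h2aa and Hist1h4k. Hist1h2bf 4sU RNA measured 155, 155 and 206 CPM in WT and 62.8, 51.6 and 57.2 CPM in KO (log2 change -1.58, SE 0.0984, limma adjusted p = 9.39e-15). Hist1h4k (ENSMUSG00000064288.4) measured 345, 302 and 467 CPM in WT and 147, 141 and 175 CPM in KO (log2 change -1.25, limma adjusted p = 2.62e-12). Both genes were separated without culture 3 as well. Hist1h1t gave 11.7, 12.7 and 19.6 CPM in WT and 3.58, 2.28 and 3.22 CPM in KO (log2 change -2.23, limma adjusted p = 1.49e-07), and Hist1h2aa gave 28.6, 27.9 and 48.1 CPM against 11.7, 11.2 and 11 CPM (log2 change -1.58, limma adjusted p = 2.18e-08).

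Of the 4 nascent rises, only those of Hist2h2ab and Hist1h2be separated the genotypes. Hist2h2ab (ENSMUSG00000063689.4), an H2A gene of the chromosome 3 cluster, measured 32.6, 22.5 and 32.9 CPM in WT 4sU RNA and 51.7, 49.2 and 47.3 CPM in KO (log2 change 0.75, SE 0.119, limma adjusted p = 3.2e-06). Its total RNA measured 16.2, 15.0 and 21.7 CPM in WT and 17.3, 19.6 and 18.4 CPM in KO and overlapped (log2 change 0.06, limma adjusted p = 0.689). Hist1h2be 4sU RNA measured 244, 278 and 367 CPM in WT and 462, 422 and 438 CPM in KO (log2 change 0.59, limma adjusted p = 2.77e-07). Hist1h2af (ENSMUSG00000061991.2) measured 152, 163 and 203 CPM against 215, 199 and 207 CPM and overlapped (log2 change 0.27, limma adjusted p = 0.00353), and this call was lost without WT culture 1 (log2 change 0.176, adjusted p = 0.0877). Hist1h4h (ENSMUSG00000060981.6) measured 526, 493 and 699.8 CPM against 681, 606 and 638 CPM, with WT values on either side of those of KO (log2 change 0.18, limma adjusted p = 0.038), and this call was lost with edgeR (adjusted p = 0.0663) and with DESeq2 (adjusted p = 0.3).

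Some stretches of chromosome 13 held genes of several classes with like nascent changes, although the larger of the 4 clusters there were mixed. The 13 members from Hist1h2bl to Hist1h4n ranged from -1.25 to 0.24 in 4sU RNA, and the 29 from Hist1h4h to Hist1h1a from -2.23 to 0.59. A run of 5 members from Hist1h4k to Hist1h3i (chr13:21750194-21783370, 33.2 kb, with H4, H2A, H2B, H1 and H3 genes) had 4sU log2 changes of -1.25 to -0.67 and total changes of -1.79 to -1.14. A run of 6 from Hist1h3g to Hist1h3e (chr13:23535434-23562369, 26.9 kb) had 4sU changes of -0.09 to 0.16 and total changes of -0.57 to -0.18. The 5 members from Hist1h2ah to Hist1h2bj (chr13:22035164-22043676), a whole cluster, likewise stayed between -0.25 and 0.16 in 4sU RNA, with 1 of the 5 passing. The 3 genes Hist1h2bf, Hist1h2ad and Hist1h3d (chr13:23573736-23576322) fell by 1.58, 0.64 and 1.07 in 4sU RNA on the log2 scale. Farther along, Hist1h2be rose, and its minus-strand model has its 3′ end 7.42 kb beyond Hist1h3d. Hist1h4d, which lies between Hist1h3d and Hist1h2be, fell by 0.28. The shorter runs were picked out after their values were seen and were not tested.

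**Figure D3:**
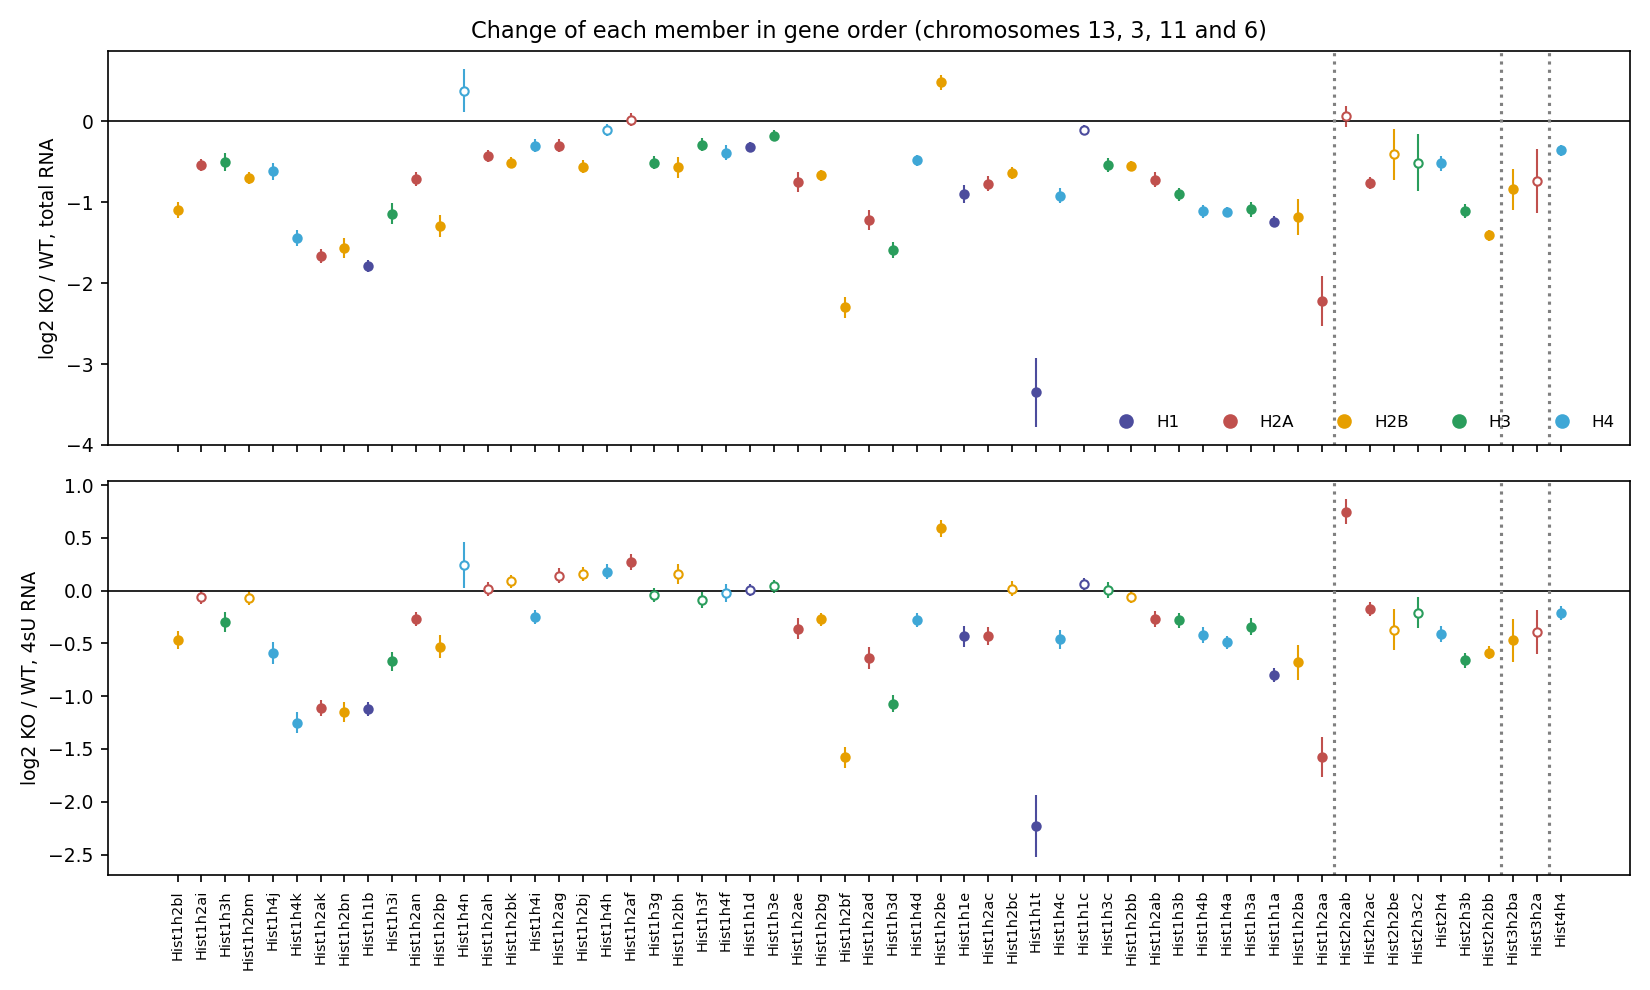
Log2 change (KO over WT) of each member in total RNA (top) and 4sU RNA (bottom), in gene order along chromosomes 13, 3, 11 and 6 (dotted lines separate chromosomes). Colours mark the class, bars are SE, and filled points passed at adjusted p under 0.05. The run from Hist1h4k to Hist1h3i lies low in both panels and Hist1h2be lies above 0 in both.

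All 10 divergent pairs whose models start within 500 bases of each other joined an H2A and an H2B gene. The 4sU log2 changes of the partners differed by a median of 0.23, and any pair of members differed by a median of 0.43. Hist1h2ak and Hist1h2bn fell alike (-1.11 and -1.15), and Hist1h2ag and Hist1h2bj were alike near 0 (0.14 and 0.16). Other partners differed, such as Hist1h2bf and Hist1h2ad (-1.58 and -0.64) or the testis genes Hist1h2aa and Hist1h2ba (-1.58 and -0.68). Presence of the octamer did not separate the H2A and H2B genes, with a median 4sU change of -0.27 for the 14 with it and -0.37 for the 14 without it.

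The ratio of total to 4sU RNA, the measure of mRNA stability in this design, was low for every member. It has no absolute scale, so that values are best read against other genes. In WT the log2 ratio was lower than 0 at adjusted p under 0.05 for 59 of 59 members (39.3% of all genes, with 44.3% higher), with a median of -1.48, against 0.08 for all genes. In KO it was also lower for 59 of 59 (41.7% of all genes, with 41.6% higher), with a median of -1.93 against -0.00, and 58 were lower by more than 1 on the log2 scale (27.1% of all genes). Without the WT 4sU library of culture 3, 59 of 59 were again lower in WT (38.3% of all genes, with 43.4% higher). The 59 include Hist2h3c2, Hist3h2a, Hist2h2be and Hist1h4n, which reached 3 CPM in fewer than 3 total libraries. These genes passed the filter only with 4sU RNA, so that a low ratio was favoured by their selection. Other protein-coding genes with a single listed exon were similarly low, with a median of -1.37 in WT and -1.62 in KO over 251 genes, 218 of them lower in WT. A low ratio was therefore shared with other genes of this structure. Members also held fewer T bases than other coding genes (median 18.4% against 24.8%), and their part in the capture of 4sU RNA was not tested.

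By class median, H4 genes had the highest ratios and H2A genes the lowest, with medians in WT of -1.09 (H4), -1.43 (H1), -1.45 (H2B), -1.53 (H3) and -1.71 (H2A). Single genes crossed this order, such as the H2A gene Hist2h2ab (-0.74) and the H4 gene Hist2h4 (-2.53), and the class difference was not tested. The highest members were Hist1h4h (log2 ratio -0.43, SE 0.0723) and Hist1h4a (-0.71, SE 0.0621). Hist1h4a (ENSMUSG00000060093.6) had 268, 295 and 260.1 CPM in WT total RNA and 420, 419 and 514 CPM in WT 4sU RNA. The lowest were Hist2h3c2 (ENSMUSG00000081058.5; log2 ratio -3.46, SE 0.289) and Hist3h2a (ENSMUSG00000078851.4; -2.82, SE 0.329). Hist2h3c2 had 1.24, 1.33 and 1.97 CPM in WT total RNA and 15.2, 19.8 and 17.5 CPM in WT 4sU RNA, and Hist3h2a had 1.24, 1.82 and 2.20 CPM against 9.76, 17.9 and 12.9 CPM. Both passed the filter through 4sU RNA alone, with no total library at 3 CPM, so that a low ratio was built into their selection. Of the Hist3h2a model, 708 of 2146 bases overlap Trim17 on the same strand.

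**Figure D4:**
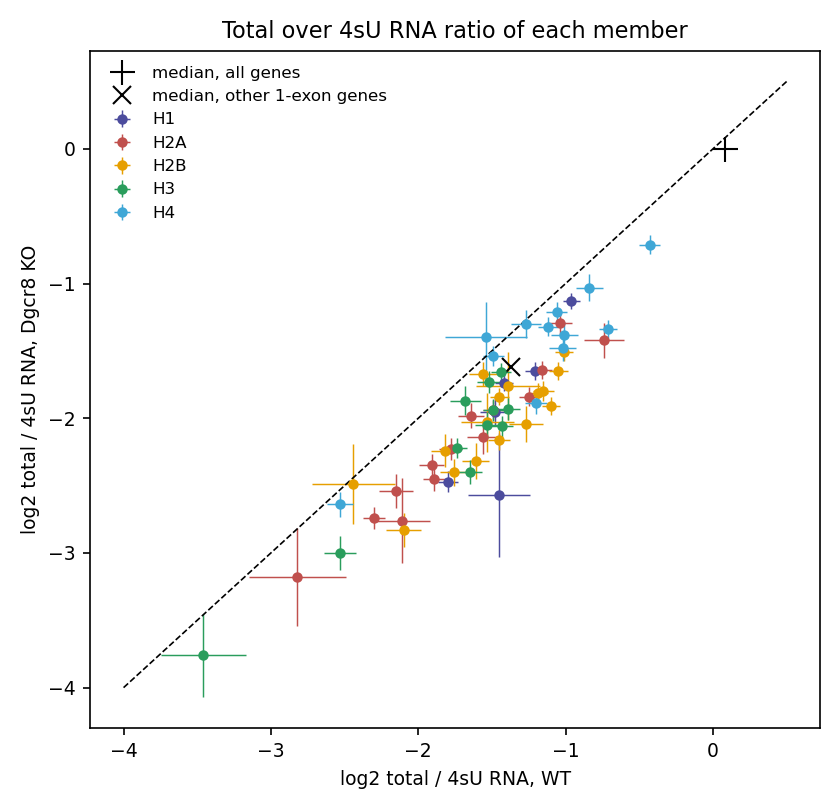
Log2 ratio of total to 4sU RNA of each member in WT (x axis) and Dgcr8 KO (y axis), with SE; colours mark the class. Every class median lies below the diagonal, and the median of other single-exon coding genes (-1.37 in WT) falls among the members, far from that of all genes (0.08).

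The ratio fell further in Dgcr8 KO. The interaction term, which compares the total to 4sU ratio between genotypes, was negative for 58 of 59 members, and 33 passed in that direction and 0 in the other (11.1% and 5.02% of all genes). The median was -0.45, against -0.09 for all genes, and 0 members passed with an absolute log2 change over 1 in either direction (0.969% of all genes lower and 0.791% higher). At an unadjusted p under 0.05, limma gave 43 lower and 0 higher. At an adjusted p under 0.05, edgeR gave 34 lower and 0 higher (11.5% and 5.26% of all genes), and DESeq2 gave 25 lower and 0 higher (5.78% and 6.5%). With the culture as a block, which pairs the libraries made from 1 RNA sample, limma gave 43 lower and 0 higher (13.4% and 6.19%). Without the WT 4sU library of culture 3, 49 were lower and 0 higher (11.4% and 5.08% of all genes), with a median of -0.60. Without the filter on low counts, 14 of 63 members were lower and 0 higher (2.94% and 1.77% of 30975 genes).

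By class, 4 of 6 H1, 9 of 14 H2A, 11 of 16 H2B and 6 of 11 H3 genes passed as lower, but 3 of 12 H4 genes. Class medians were -0.61 for H2B, -0.48 for H3, -0.45 for H1 and for H2A, and -0.20 for H4. Without the WT 4sU library of culture 3, 5 H1, 13 H2A, 13 H2B, 10 H3 and 8 H4 genes were lower, with a median of -0.36 for H4. The difference between classes was not tested. Other single-exon coding genes had a median of -0.22, with 41 of 251 lower.

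The largest falls that passed were in Hist2h2bb (-0.81, SE 0.0940, limma adjusted p = 1.67e-07), Hist1h2bp (-0.76, SE 0.188, adjusted p = 0.00419), Hist1h3a (-0.75, SE 0.129, adjusted p = 9.07e-05) and Hist1h2bh (-0.73, SE 0.175, adjusted p = 0.00322). Hist2h2bb 4sU RNA measured 759, 823 and 989 CPM in WT and 558, 559.7 and 574 CPM in KO, a smaller fall than in its total RNA above. Hist1h3a (ENSMUSG00000069265.2) total RNA was 160.4, 170 and 186 CPM in WT and 79.5, 83.8 and 79.8 CPM in KO, and its 4sU RNA was 452, 527 and 667 CPM in WT and 461, 396 and 427 CPM in KO. The total values were separated and the 4sU values overlapped.

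Hist1h2bp (ENSMUSG00000069308.7) total RNA was 48.1, 44.4 and 51.1 CPM in WT and 22.6, 17 and 19.0 CPM in KO, against 97.4, 103 and 155 CPM and 89.9, 75.9 and 76.3 CPM in 4sU RNA. Hist1h2bh (ENSMUSG00000064168.4) total RNA was 30.8, 28 and 31.9 CPM in WT and 20.3, 18.1 and 23.0 CPM in KO. Its 4sU RNA was 113, 115 and 166 CPM in WT and 133, 143 and 158 CPM in KO, so that only the steady-state level was lower. The Hist1h2bp call was lost with DESeq2 (adjusted p = 0.087), and without the filter on low counts limma gave an adjusted p of 0.0671 for Hist1h2bp and 0.0543 for Hist1h2bh.

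Set against each other, the 50 members that fell in total RNA divided into 35 that also fell in 4sU RNA and 15 that did not (22.3% and 13.1% of all genes). Among the 50, 20 fell in total RNA, 4sU RNA and ratio (2.63% of all genes), and 15 fell in total and 4sU RNA without passing for the ratio (19.6%). A further 12 fell in total RNA and ratio without passing as lower in 4sU RNA (5.1%), and 3 fell in total RNA alone (8.04%). Without the WT 4sU library of culture 3, 52 fell in total RNA, of which 29 also fell in 4sU RNA and 23 did not (21% and 14.9% of all genes). The combinations in the same order then held 24, 5, 22 and 1 members (2.51%, 18.5%, 5.69% and 9.2% of all genes), so that the split between them depended on that library. The total and 4sU changes come from different libraries of the same cultures, and the interaction is built from both. Total RNA changed more negatively than 4sU RNA in 98.3% of members and in 61.7% of all genes.

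**Figure D5:**
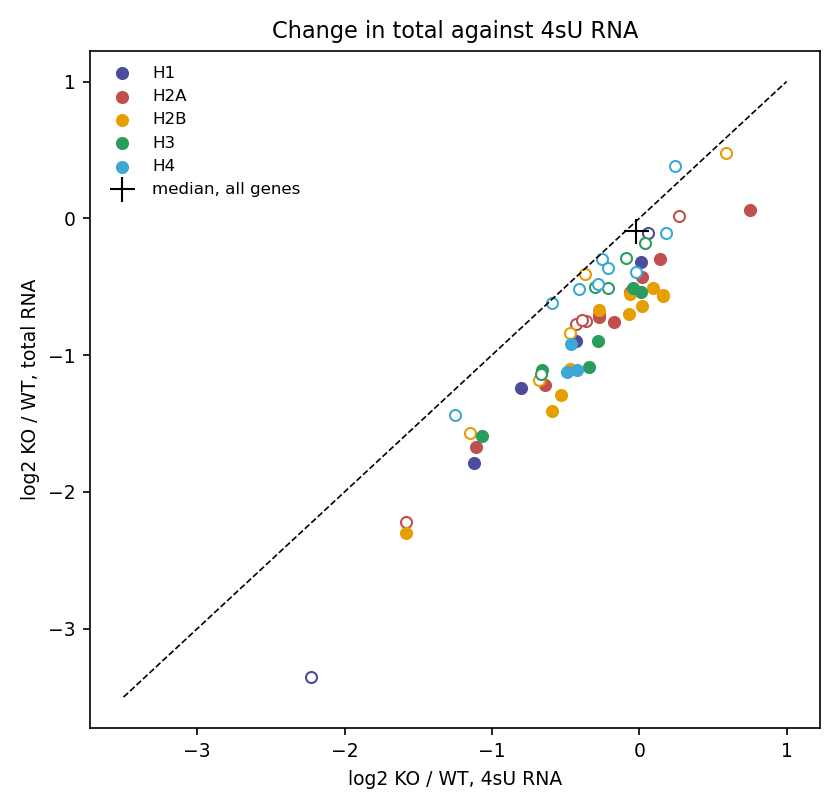
Log2 change (KO over WT) in 4sU RNA (x axis) against total RNA (y axis) for each member, coloured by class. Filled points passed for the interaction and the dashed line marks equal change; 58 of 59 members lie below it, and the cross is the median of all genes (-0.02 and -0.09).

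Members whose deposited model runs over 1000 bases, past the usual end of a histone message, are given separately. There were 7 (Hist1h1c, Hist1h2be, Hist2h2be, Hist2h3c2, Hist2h4, Hist3h2a and Hist4h4), of which 2 were lower in total RNA and 0 in the ratio, with a median interaction of -0.15 and a range of -0.35 to -0.04. Hist1h2be was higher in total RNA. Over all genes, 35.4% were lower in total RNA and 11.1% in the ratio, so the 7 did not exceed these shares in the main fit. Of the 52 shorter models, 48 were lower in total RNA and 33 in the ratio, with a median of -0.48. Without the WT 4sU library of culture 3, 3 of the 7 and 46 of the 52 were lower in the ratio (11.4% of all genes), with medians of -0.28 and -0.63. In total RNA 3 of the 7 and 49 of the 52 were then lower (35.9% of all genes), so the 7 exceeded both shares in that fit. This split was made after the values were seen and was not tested. Of the 7, Hist2h2be, Hist2h3c2 and Hist3h2a had a mean under 3 CPM in total RNA of each genotype, where depth limits the comparison. The 11 members with at least 80% unique windows included 6 of these long models, and had a median interaction of -0.35, with 3 lower. The 31 members with under 50% unique windows had a median of -0.45, with 20 lower. Without that library the medians were -0.37 and -0.59, with 7 and 29 lower.

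Near-identical copies limit what can be said of single genes. Reads were kept only where they mapped uniquely. Unique windows are 50-base windows found at a single genomic position among GENCODE transcripts, also where another gene overlaps that position. Their share had a median of 45.4% over the passing members, from 6.1% (Hist1h3h) to 100%. The 8 members that did not pass the filter (Hist1h2ao, Hist1h2ap, Hist1h2bq, Hist1h2br, Hist1h4m, Hist2h2aa1, Hist2h2aa2 and Hist2h3c1) had at most 2 counts in any library, and 0% to 65.3% unique windows. The levels of these 8 were not detectable here. Among them, Hist2h3c1 overlaps Gm20634 on the same strand over all of its 1825 bases, and Hist2h2aa1 over 529 of its 586. Hist1h3h passed with fewer unique windows than Hist2h3c1, and why the 8 had so few counts was not tested.

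Most genes that act in the making and decay of histone mRNA fell in total RNA. Of 22 listed regulators, 20 were matched and tested, and 13 fell and 1 rose in total RNA, with a median log2 change of -0.25. Slbp, the stem-loop binding protein, fell from 149 ± 10.5 to 101.0 ± 5.10 CPM (SD, n = 3; log2 change -0.56, limma adjusted p = 3.54e-09), and its 4sU RNA fell from 183 ± 7.61 to 118 ± 2.04 CPM (log2 change -0.64, limma adjusted p = 6.17e-10). Its ratio did not pass (log2 change 0.08, limma adjusted p = 0.636). Npat, the transcriptional coactivator of histone genes, did not pass in total RNA (log2 change 0.06, limma adjusted p = 0.381).

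Total RNA also fell for Ncbp2 of the cap binding complex (-0.71), Lsm1 of the decay ring (-0.64), the helicase Upf1 (-0.50) and the stem-loop exonuclease Eri1 (-0.28). In 4sU RNA 12 regulators fell and 2 rose. The cyclin E genes differed from each other. Ccne1 fell in total RNA (-0.71) and in 4sU RNA (-0.86). Ccne2 rose in total RNA from 51.0 ± 6.09 to 73.1 ± 2.46 CPM (log2 change 0.52, limma adjusted p = 9.61e-07) while its 4sU RNA fell from 102 ± 5.81 to 65.0 ± 3.96 CPM (log2 change -0.64), and its ratio rose (log2 change 1.16, SE 0.111, limma adjusted p = 3.6e-09).

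Histone genes whose symbols lie outside the rule for members, most of them variants, were tested for comparison. Of 11, 8 fell and 0 rose in total RNA (limma; 7 and 0 with edgeR), 3 fell and 1 rose in 4sU RNA, and 6 fell and 0 rose in the ratio (6 and 0 with edgeR), with a median interaction of -0.28. At an unadjusted p under 0.05, 0 rose in total RNA and 0 in the ratio. Cenpa, the centromeric H3 variant, whose message is itself regulated in the cell cycle, fell from 154 ± 4.71 to 42.2 ± 2.5 CPM (log2 change -1.87, limma adjusted p = 2.6e-20) and in 4sU RNA by 1.21 on the log2 scale. H2afj fell in total RNA from 67.1 ± 9.90 to 34.7 ± 1.02 CPM (log2 change -0.95, limma adjusted p = 2.4e-10), with a change in ratio of -1.19 (limma adjusted p = 7.21e-08). H2afx, the variant phosphorylated at DNA breaks, fell by 0.82, and H2afz by 0.45. The H3.3 gene H3f3b fell by 0.31, and H3f3a did not pass (0.01).

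Among 15 histone chaperones, 9 fell and 0 rose in total RNA (limma; 9 and 1 with edgeR, and 2 higher at an unadjusted p under 0.05), and 9 fell and 2 rose in 4sU RNA. Nasp, which binds H1 and holds the soluble pool of H3 and H4, fell from 956 ± 30.8 to 421 ± 8.02 CPM in total RNA (log2 change -1.18, limma adjusted p = 1.68e-18) and by the same amount in 4sU RNA. Chaf1a, the large subunit of the assembly factor CAF-1, fell by 0.51. Asf1b fell in 4sU RNA (log2 change -0.76, limma adjusted p = 1.74e-07) with a total change of 0.08 (adjusted p = 0.435), and its ratio rose (log2 change 0.84, limma adjusted p = 1.53e-05). Its paralogue Asf1a rose in 4sU RNA (0.47) and its ratio fell (-0.32, limma adjusted p = 0.0243). For all 3 lists, the shares are to be read against the 35.4% of all genes that fell in total RNA and the 28% that fell in 4sU RNA, and for the ratio against 11.1% lower and 5.02% higher.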

How the data were processed

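The authors trimmed reads with Cutadapt 1.14, mapped them uniquely with STAR 2.5.3a to mm10 and counted them with featureCounts 1.5.3 (strand setting 2) on GENCODE M14 without rRNA genes. The deposited values were whole-number counts per gene, not normalized, and no column was left unused. Library totals were 4593914 to 9295245. The 92 ERCC spike-in rows held 1 count in all, so amounts per cell were not measured. Reads carried no molecular identifiers, so intervals cover counting error only.

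Symbols came from GENCODE M21 (same build) by stable identifier (51274 of 51467). Of the 59 passing members, 57 matched by identifier and 2 (Hist1h2bm and Hist1h2bh) by position. The filter of at least 3 CPM in 3 libraries and a limma model with an interaction term follow the study. TMM scaling (edgeR 4.0.16) and voom weights were chosen here, and library type, genotype and their interaction were fitted in 1 model of 12 libraries with limma 3.58.1 (R 4.3.3). p-values were adjusted over all 14033 genes. Groups and replicate numbers came from the sample titles.

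The members, gene lists and tests were chosen with earlier results of these data known. Per-library values are given for the 4 largest rises and falls that passed in each genotype comparison, the top gene of each class per kb, and the highest and lowest WT ratios. Other genes were named with their values already known. Alternatives were edgeR, DESeq2 1.42.0, other scalings and filters, blocks and left-out cultures. Code was tested on simulated data. The total and 4sU libraries of a culture came from 1 RNA sample and are paired by design (their deviations correlated by 0.0181 to 0.116). Between genotypes, replicate numbers did not pair the samples (-0.0898 to 0.0823). Stem-loops were searched in GENCODE M21 transcripts and promoters in RefSeq windows, and no genome sequence was used here.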

Additional observations from a re-analysis of the deposited data

Results flagged for a closer look

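No replication-dependent histone gene changed significantly in opposite directions in total and 4sU RNA, but 6 other listed genes did, with an interaction that passed in limma. Ccne2 was higher in total RNA (log2 change 0.52) and lower in 4sU RNA (-0.64), with an interaction of 1.16. The histone gene H2afj was lower in total RNA (-0.95) and higher in 4sU RNA (0.24), with an interaction of -1.19. Cdk2, the kinase partner of cyclin E, was lower in total RNA (-0.17) and higher in 4sU RNA (0.25), with an interaction of -0.42. The ESC markers Klf4 (-0.40 and 0.15, interaction -0.55), Esrrb (-0.17 and 0.28, interaction -0.45) and Nanog (-0.18 and 0.16, interaction -0.34) showed the same pattern as Cdk2.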

How the results depend on the processing

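Of 954 values for single histone genes under the alternatives, 901 kept their direction and side of the threshold, 19 fell below it, 22 passed newly and 12 changed sign. Apart from the threshold on size, members lower in total RNA numbered 46 to 53, members lower in 4sU RNA 28 to 41, and members lower in the ratio of total to 4sU RNA 14 to 49. In the main fit 35.4%, 28% and 11.1% of all genes were lower, in the same order. For the ratio, the fit without the filter gave the 14 (2.94% of all genes). The fit without the WT 4sU library of culture 3 gave the 49 (11.4%). Requiring an absolute log2 change over 1 left 0 higher and 19 lower in total RNA, 0 higher and 8 lower in 4sU RNA, and 0 lower in the ratio. Without the filter 14 of 63 members were lower in the ratio, with medians of -0.61 in total RNA and -1.78 for the KO ratio. DESeq2 gave a total median of -0.633. Median ratios were -2.07 in KO by library size only, -1.8 in WT and -2.19 in KO with upper-quartile scaling (all genes -0.237 and -0.256), and -1.72 and -2.16 with 3 CPM in all 12 libraries. With RLE size factors the interaction median was -0.362 and that of all genes -0.00257. The log2 change of the class sums in total RNA by library size only was -0.672 (H1), -0.629 (H2B) and -0.53 (H4), and that of H1 without the filter was -0.693. Chaperones passing in the ratio numbered 2 with DESeq2, RLE factors, upper-quartile scaling and no filter. The causes of these shifts were not tested.

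Leaving out 1 replicate gave 2 to 13 members higher in 4sU RNA, 2 to 4 regulators and 1 to 3 chaperones passing in the ratio. The 13 came without WT replicate 3. Leaving out its 4sU library alone, an alternative chosen after seeing the data, also gave 13 (27.0% of all genes, against 28.3% in the main fit). In that fit 7 regulators passed in the ratio (11.4% of all genes lower and 5.08% higher). In the leave-one-out fits, total log2 changes ranged from -0.0494 to 0.0932 for Hist1h2af and from -0.0671 to 0.233 for Hist2h2ab, and 4sU changes from -0.134 to 0.0942 for Hist1h3g and from -0.173 to 0.0407 for Hist1h2bb (0.0957 and 0.0424 without the 4sU library alone). Interaction values ranged from -0.625 to 0.2 for Hist3h2a and from -0.573 to 0.0106 for Hist2h3c2, both of few counts, and that of Hist1h2be was 0.000423 with DESeq2.

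With the replicate number as a block, 50 members were lower and 1 higher in total RNA, 36 lower and 5 higher in 4sU RNA, and 37 lower and 0 higher in the ratio. In the main fit, 35.4% of all genes were lower and 26.1% higher in total RNA. The shares there were 28% and 28.3% in 4sU RNA, and 11.1% and 5.02% in the ratio. With the culture as a block, since each RNA sample was split for both libraries, 43 were lower in the ratio (13.4% of all genes). Depth limits members under 3 CPM, and unique mapping limits most others. The 3 against 3 design cannot reach an exact permutation p under 0.1 for a single gene.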
